A study of Homo sapiens with 12 samples.

Results

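The carbonic anhydrase genes CA2, CA3, CA5B, CA8, CA9, CA11, CA12 and CA13 were examined as a family, chosen by name as a candidate axis of temozolomide resistance downstream of NF-kB. Earlier results of these data were known when the choice was made. Of these 8 genes, 7 had at least 1 probe set with a single gene symbol, 17 probe sets in all, among 19775 genes measured on the arrays. CA9 was not analysed here, because the probe annotation used lists no probe set for it. The RNA came from the human glioma cell line U-87 MG, in 4 groups of 3 arrays. The groups were cells that stably carry a hairpin directed at p105 (shp105) and received temozolomide (TMZ), a DNA-methylating drug used against glioma, shp105 cells given the vehicle DMSO, cells with a control hairpin (shControl) given TMZ, and shControl cells given DMSO. TMZ was used at 100 uM and all treatments lasted 16 h. NFKB1 encodes p105, which is cut to yield p50, a DNA-binding subunit of NF-kB. All 4 groups share the stable transfection and the hairpin-bearing background. Whether each line is 1 clone or a pool is not given in the sources used here, so a difference between the lines cannot be told apart from a difference between 2 separately derived cell populations.

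Carbonic anhydrases are enzymes that turn carbon dioxide and water into bicarbonate and a proton, and back. They set the pH inside and outside cells together with bicarbonate transporters and proton exporters, and in glioma they are studied for their part in coping with acid from glycolysis. CA2, CA13 and CA3 work in the cytosol, CA5B works in mitochondria, CA12 is anchored in the plasma membrane with its active site outside the cell, and CA8 and CA11 are family members that lack the enzyme activity. CA2 is also known as a glial enzyme, found in oligodendrocytes and astrocytes of the brain.

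Each value is a level on the log2 scale, so a difference of 1 is a doubling of signal, and n = 3 arrays stands behind every group mean. Where a gene has several probe sets, the one with the highest mean stands for it. A gene is called where limma's moderated test over all 19775 genes gave a Benjamini-Hochberg adjusted p under 0.05. Bacterial control probe sets, whose targets the cells lack, read between 2.33 and 4.30, and levels inside that range cannot be told from background. Array medians lay between 5.04 and 5.09. The hybridization spike-ins, control RNAs added to each sample before hybridization, differed by group, with means of 11.32 (SD 0.13) in shp105 cells with TMZ, 11.12 (SD 0.10) in shp105 cells with DMSO, 10.95 (SD 0.09) in shControl cells with TMZ and 10.63 (SD 0.05) in shControl cells with DMSO. Since the spike-in level moved with the groups, the spike-in level and the group cannot be fully told apart in a fit that holds both. RNA integrity, read as the log2 excess of 3' over 5' probe sets of GAPDH, also moved with the lines, at 0.40 and 0.36 in shp105 cells with TMZ and with DMSO, against 0.30 and 0.25 in shControl cells with TMZ and with DMSO (SD 0.03 to 0.04). For ACTB it was 3.06 and 3.07 in shp105 cells, against 2.85 and 3.02 in shControl cells, in the same order of treatments. Their part in the line differences was not tested. The labels call the replicates biological without saying what was repeated, so the p-values speak of the spread among these 12 arrays, which may be technical.

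Of the glioma markers fixed for the line, all 5 of 5 lay above the control range in every group. VIM, an intermediate filament of mesenchymal cells, had group means of 14.73 to 14.81, and NES, the lowest, of 4.92 to 5.53. Of the 5, 1 was called higher and 2 lower in shp105 cells under either treatment, where 8.34% of all genes were higher and 11.6% lower in DMSO, and 10.1% and 11% in TMZ. All 3 measured erythroid markers also lay above the control range in every group, at group means of 4.53 to 6.53, and none was called. A level above that range thus does not by itself show that cells of a kind are present. Among 4 measured oligodendrocyte markers, a cell type rich in CA2, the group means ran from 3.66 to 5.52 and none was called in any comparison. Their summed linear level ran over the arrays from 106 to 124 in shp105 cells with TMZ, from 106 to 115 in shp105 cells with DMSO, from 108 to 129 in shControl cells with TMZ and from 101 to 125 in shControl cells with DMSO, and 3 of the 4 lay above the control range in each group. Their part in the CA2 result was not tested. Of 4 measured leukocyte markers none was called, and PTPRC, which defines leukocytes, had group means of 2.92 to 3.23, inside the control range. CD14, at 3.53 to 3.66, also lay inside it. The other 2 of the 4 lay above it in each group, CD3E at 5.63 to 5.87 and ITGAM at 5.36 to 5.47. Of 5 epithelial markers 1 was called higher in shp105 cells under either treatment, KRT8, an intermediate filament (0.69 in DMSO and 0.81 in TMZ), and 1 lower, EPCAM, an adhesion molecule (-0.39 and -0.45). Their summed linear level ran from 165 to 181 in shp105 cells with TMZ, from 162 to 174 in shp105 cells with DMSO, and from 142 to 164 and 142 to 152 in shControl cells with TMZ and with DMSO, while CDH1, which defines epithelial cells, had group means of 3.21 to 3.49, inside the control range. Of the 5 epithelial markers, 3 lay above the control range in each group. The part of these markers in the line differences was not tested. In bulk RNA, fewer cells of a kind and less RNA per cell cannot be told apart.

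NFKB1, the gene whose product the hairpin targets, averaged 7.20 in shp105 cells and 7.32 in shControl cells with DMSO, a difference of -0.12 (SE 0.07, limma adjusted p = 0.26) that was not called. With TMZ it averaged 7.16 in shp105 cells and 7.41 in shControl cells, a difference of -0.25 (SE 0.07, adjusted p = 0.0204). Leaving out 1 array ended this call for replicates 1 (adjusted p = 0.06) and 3 (0.0585) of shp105 cells and for replicates 1 (0.0903) and 2 (0.0684) of shControl cells. It also ended when the fit held the 6 TMZ arrays alone (0.0558) and when the spike-in mean entered the model (0.565). Where the single NFKB1 probe set lies relative to the hairpin's target is not given in the sources used here.

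The first question was whether the lines differ in these enzymes without the drug. In DMSO, CA2 and CA13 were lower in shp105 cells, and the other 5 measured genes were not called. Both are cytosolic, active enzymes. Of all genes, 19.9% were called in this comparison, 8.34% higher and 11.6% lower, and nothing about the family is read from 2 of 7. The median difference of the 7 genes was -0.19, beside -0.02 over all genes. For the size of the CA2 difference, 61 of 19775 genes had a lower one.

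CA2 stood at log2 levels of 5.49, 5.27 and 5.51 on the 3 arrays of shp105 cells with DMSO, against 7.16, 6.94 and 7.02 on those of shControl cells with DMSO. The groups did not overlap, as held for 35.9% of all genes, and every shp105 array lay far below every shControl array. The difference was -1.61 (SE 0.08, 95% interval -1.79 to -1.44, adjusted p = 6.25e-08), or 3.06-fold lower in shp105 cells. The shp105 levels of CA2, read by 1 probe set, lay near those of the leukocyte markers CD3E (5.63 to 5.87) and ITGAM (5.36 to 5.47). The direction is clear on these arrays, but the fold is uncertain in size. CA13, the other cytosolic enzyme called, stood at 8.33, 8.46 and 8.47 in shp105 cells with DMSO, against 8.84, 8.84 and 8.95 in shControl cells with DMSO. These groups did not overlap either, but the step was smaller. The difference was -0.46 (SE 0.08, 95% interval -0.63 to -0.28, adjusted p = 0.00157), or 1.37-fold lower. When the spike-in mean entered the model the CA13 difference was -0.36 and no longer called (adjusted p = 0.482), while CA2 stood at -2.0 (adjusted p = 5.29e-05).

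CA3, a cytosolic enzyme of low activity known mainly from muscle and fat, read between 2.57 and 2.95 on all 12 arrays. That is inside the range of the control probe sets, and its difference in DMSO, -0.12 (95% interval -0.29 to 0.06), says nothing about a level. CA5B, the mitochondrial enzyme, stood at 4.91, 5.09 and 5.57 in shp105 cells with DMSO and at 5.22, 5.31 and 5.08 in shControl cells with DMSO. The groups overlapped and the shp105 arrays were spread widely, so the interval of the difference ran from -0.32 to 0.30 around -0.01. The mean level of CA5B, 5.12, lay close to the array medians of 5.04 to 5.09, so the lack of a call says little about this gene. CA12, the membrane-bound enzyme, stood at 9.94, 10.02 and 9.99 in shp105 cells with DMSO, against 10.00, 10.01 and 9.99 in shControl cells with DMSO. Here the arrays lay almost on top of each other, and the difference of -0.02 had a narrow interval, from -0.13 to 0.09.

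The members without enzyme activity were not called in DMSO. CA11 stood at 5.82, 5.92 and 5.83 in shp105 cells, against 6.04, 5.92 and 6.17 in shControl cells, which overlap, with a difference of -0.19 (95% interval -0.38 to 0.01, adjusted p = 0.193). CA8 stood at 3.63, 3.75 and 3.73 in shp105 cells, against 3.91, 3.82 and 4.14 in shControl cells. The CA8 groups did not overlap, as was true of 35.9% of all genes, but all 12 of its values lay inside the range of the control probe sets, and the difference of -0.26 was not called (adjusted p = 0.122).

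**Figure D1:**
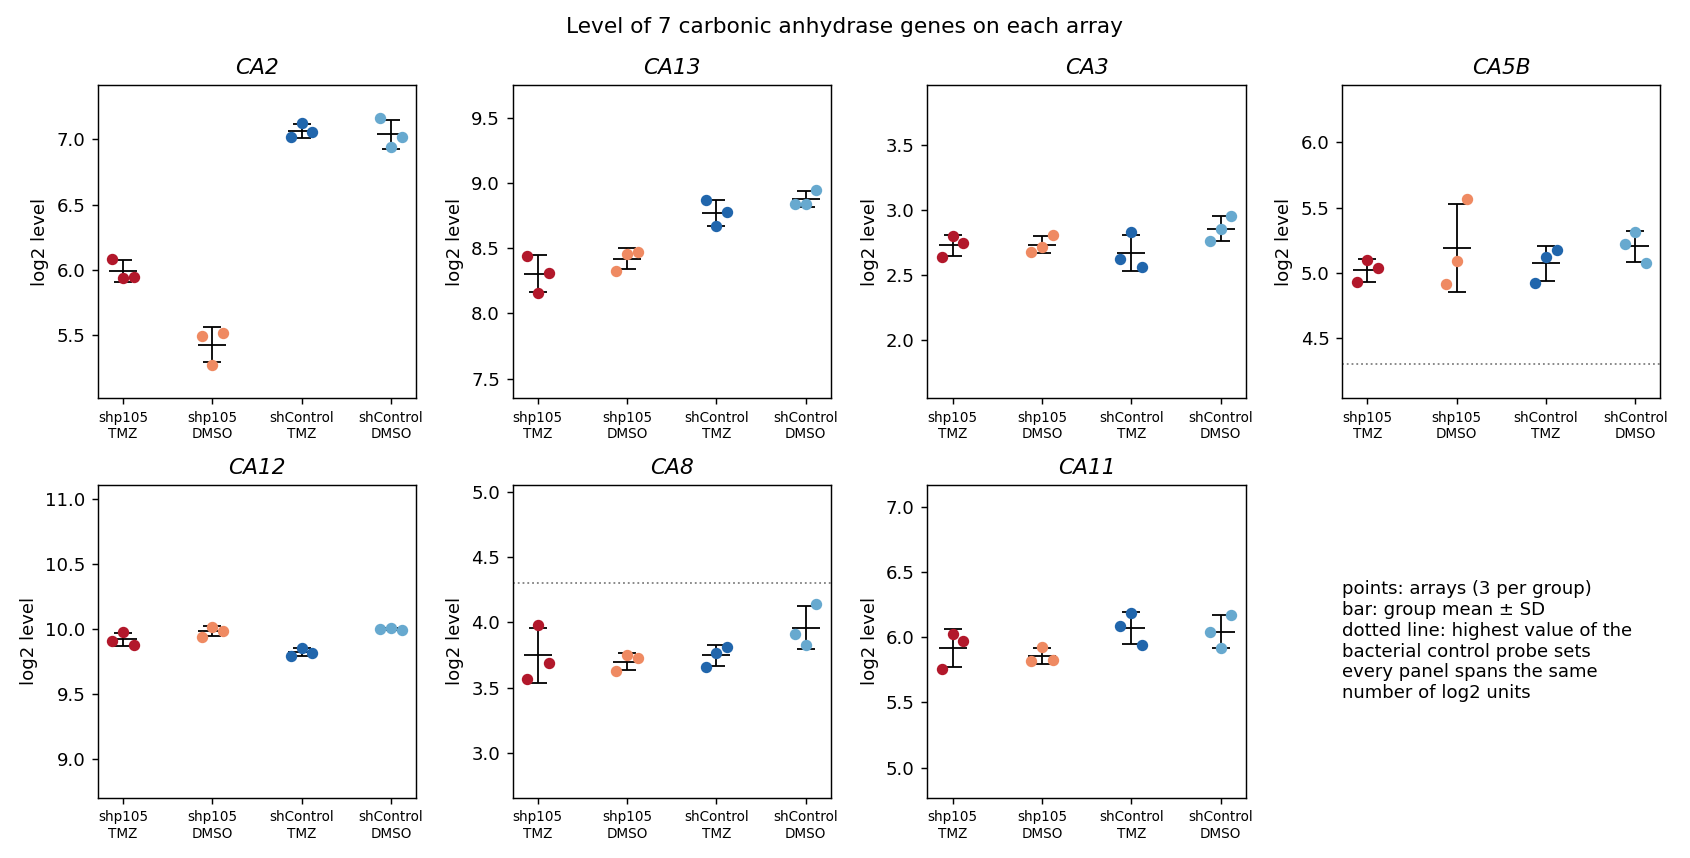
Log2 level of the 7 measured carbonic anhydrase genes on each array, with the 4 groups on the horizontal axis, points for arrays, bars for the group mean ± SD (n = 3) and, where a panel reaches it, a dotted line at 4.30, the highest value of the bacterial control probe sets. The CA2 arrays of shp105 cells with DMSO lie between 5.27 and 5.51 and those with TMZ between 5.94 and 6.08, below all shControl arrays, which lie between 6.94 and 7.16.

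The second question was whether the lines also differ under TMZ. The same genes, CA2 and CA13, were called and both were lower in shp105 cells, where 21.1% of all genes were called, 10.1% higher and 11% lower. The median of the 7 differences was -0.05, beside -0.01 over all genes. The arrays of this comparison are not those of the comparison in DMSO. Both comparisons set the same lines side by side and share the estimate of spread, so this is not an independent repeat.

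CA2 stood at 6.08, 5.94 and 5.95 in shp105 cells with TMZ, against 7.02, 7.13 and 7.05 in shControl cells with TMZ. The groups were again clearly apart, with a difference of -1.08 (SE 0.08, 95% interval -1.25 to -0.90, adjusted p = 1.9e-06), or 2.11-fold lower in shp105 cells, and 145 of 19775 genes had a lower difference. The shp105 levels lay below those of the erythroid marker HBB (group means 6.28 to 6.53), so this fold too is uncertain in size. CA13 stood at 8.44, 8.16 and 8.31 in shp105 cells with TMZ, against 8.87, 8.67 and 8.78 in shControl cells with TMZ. These arrays did not overlap, as held for 35.7% of all genes. The CA13 difference of -0.47 (SE 0.08, 95% interval -0.65 to -0.29, adjusted p = 0.00122) was almost that seen in DMSO. With the spike-in mean in the model it was -0.40 and not called (adjusted p = 0.21), and CA2 was at -1.37 (adjusted p = 9.06e-05).

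CA12 was the member nearest to a call on the higher side. It stood at 9.91, 9.98 and 9.88 in shp105 cells with TMZ, against 9.80, 9.86 and 9.82 in shControl cells with TMZ, so that the groups did not overlap, as held for 35.7% of all genes. The difference was 0.10 (SE 0.05, 95% interval -0.01 to 0.20, adjusted p = 0.192). The other 4 genes were not called: CA11 differed by -0.15 (95% interval -0.35 to 0.05), CA5B by -0.05 (-0.36 to 0.25), CA3 by 0.06 (-0.12 to 0.23) and CA8 by 0.00 (-0.23 to 0.23).

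**Figure D2:**
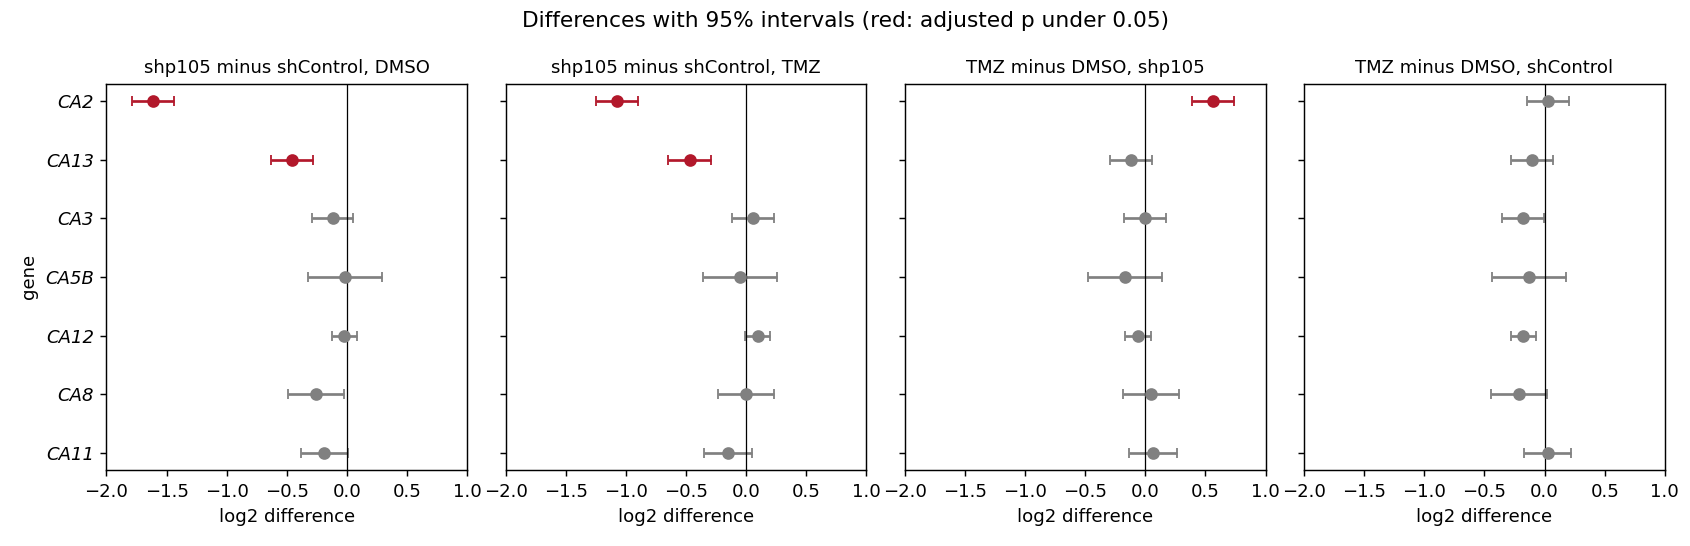
Log2 differences of the 7 genes with 95% intervals from the limma fit, with a panel for each of 4 comparisons and red for an adjusted p under 0.05. CA2 lies at -1.61 and -1.08 and CA13 at -0.46 and -0.47 between the lines, and CA2 at 0.56 is the single red point among the TMZ responses.

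The third question was what TMZ does to these genes within each line. In shp105 cells CA2 was higher with TMZ, and no other member was called, where 0.865% of all genes were called, 0.647% higher and 0.217% lower. CA2 stood at 6.08, 5.94 and 5.95 with TMZ, against 5.49, 5.27 and 5.51 with DMSO. The treated arrays all lay above the untreated ones, a lack of overlap shared by 20.4% of all genes. The difference was 0.56 (SE 0.08, 95% interval 0.39 to 0.74, adjusted p = 0.00946), or 1.48-fold higher, and 26 of 19775 genes had a higher difference. Treated and untreated arrays all lay below the erythroid marker HBB (group means 6.28 to 6.53), so the fold is uncertain in size. The call ended when the fit held the 6 shp105 arrays alone (0.56, adjusted p = 0.119), where 2 genes in all were called, and when the spike-in mean entered the model (0.41, adjusted p = 0.136). The median difference of the 7 genes was -0.01, beside 0.01 over all genes.

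In shControl cells no carbonic anhydrase gene was called, where 0.369% of all genes were; at an unadjusted p under 0.05 limma gave 2 of the 7, CA3 and CA12, and 2180 of all genes. CA2 stood at 7.02, 7.13 and 7.05 with TMZ, against 7.16, 6.94 and 7.02 with DMSO. The arrays overlapped, and the difference of 0.03 had an interval from -0.15 to 0.20. CA12 stood at 9.80, 9.86 and 9.82 with TMZ, against 10.00, 10.01 and 9.99 with DMSO. The groups did not overlap, as held for 20.3% of all genes, and the difference was -0.18 (SE 0.05, 95% interval -0.28 to -0.07, adjusted p = 0.192), which was called when genes below the median level were left out (adjusted p = 0.0381) and with eBayes trend and robust fitting (0.0436). CA3, at background, differed by -0.18 (adjusted p = 0.423).

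Among the remaining members CA13 differed by -0.12 (95% interval -0.29 to 0.06) with TMZ in shp105 cells and by -0.10 (-0.28 to 0.07) in shControl cells. In shp105 cells the CA12 difference was -0.06 (-0.17 to 0.05), against -0.18 in shControl cells. For CA5B the TMZ differences were -0.17 in shp105 cells and -0.13 in shControl cells, and for CA11 0.06 and 0.03 in the same order of lines. CA8 differed by 0.05 in shp105 cells and by -0.21 in shControl cells (adjusted p = 0.499), with all values inside the control range.

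Whether the lines answer TMZ differently was tested by the difference of both responses, shp105 minus shControl. For CA2 it was 0.54 (SE 0.11, 95% interval 0.29 to 0.79, unadjusted p = 0.000529, adjusted p = 0.381), which was not called. No gene was called by limma in this test, 0% of 19775, while 1266 genes had an unadjusted p under 0.05, and 24 had a smaller p than CA2. With genes below the median level left out 8 genes were called and with eBayes trend and robust fitting 12, and over all alternatives the adjusted p of CA2 ran from 0.12 to 0.656. CA12 differed by 0.12 (adjusted p = 0.831), CA8 by 0.26 (0.831) and CA13 by -0.01 (0.993). The CA2 levels thus order the groups as shp105 with DMSO, shp105 with TMZ and then the shControl groups, which overlapped each other.

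The probe sets of a gene bear on how far each value can be trusted. CA2, CA3 and CA11 are read by 1 probe set each. CA13 is read by 2, and the dimmer one stood at 5.52, 5.70 and 5.35 in shp105 cells with DMSO, against 5.62, 5.83 and 5.72 in shControl cells with DMSO. It overlapped, at -0.20 (adjusted p over all 41097 probe sets with 1 symbol = 0.199). Under TMZ it read 5.62, 5.73 and 5.52 in shp105 cells, against 5.95, 5.88 and 5.86 in shControl cells, at -0.27 (adjusted p = 0.0706). Both CA13 differences were below 0, and the brighter probe set alone was called. For TMZ in shControl cells the 2 differences had opposite signs, -0.10 and 0.17.

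CA12 is read by 7 probe sets with mean levels from 4.65 to 9.93. In DMSO they scattered around 0 between the lines, from -0.08 to 0.09, with none called (14.4% of all probe sets were). Under TMZ all 7 differences were above 0, from 0.05 to 0.31. The largest was called (0.31, SE 0.07, adjusted p over probe sets = 0.011; 15.4% of all probe sets were called there): that probe set stood at 9.69, 9.84 and 9.70 in shp105 cells, against 9.40, 9.52 and 9.39 in shControl cells. For TMZ in shControl cells all 7 differences were below 0, from -0.21 to -0.09, none called (0.151% of all probe sets were), and in shp105 cells 3 were above 0 and 4 below. The mean of the 7 probe sets was called higher in shp105 cells under TMZ (0.15, adjusted p = 0.0479). Probe sets of a gene share its transcripts and are not replicates. The 2 probe sets of CA5B differed by at most 0.17 in size in any of these 4 comparisons, and the 3 of CA8 had mean levels of 2.75 to 3.79, below the highest control value.

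**Figure D3:**
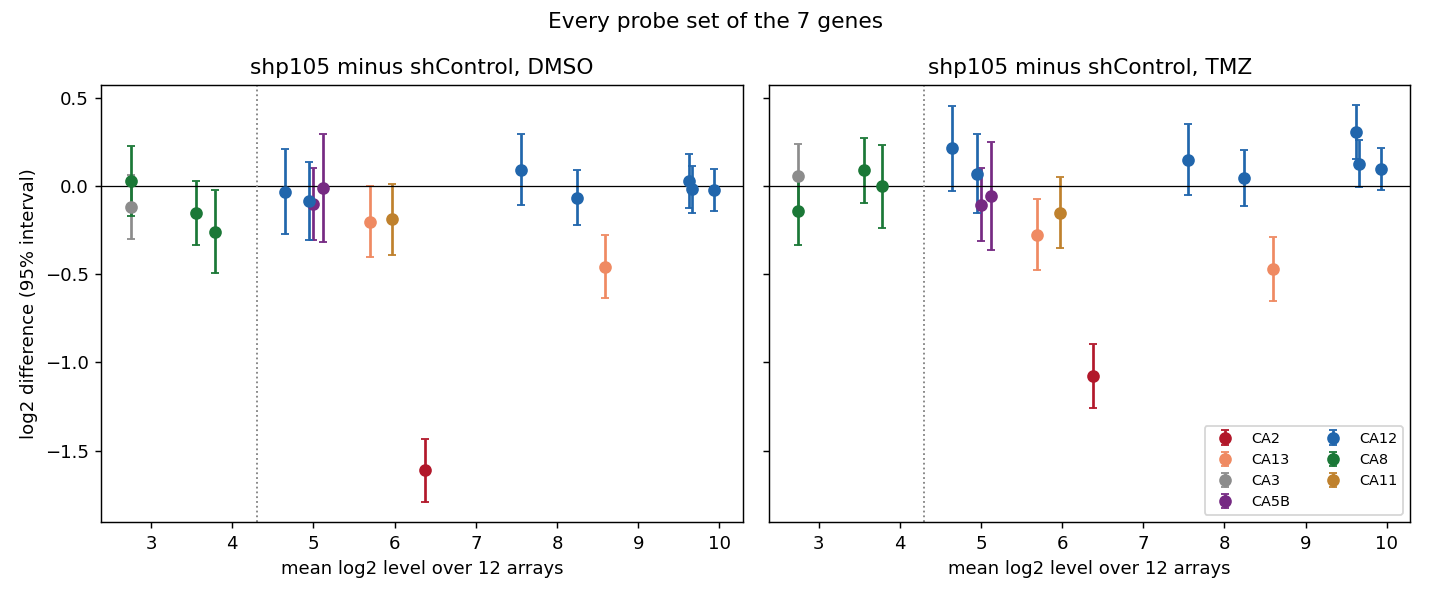
Log2 difference between the lines, shp105 minus shControl, with its 95% interval (vertical axis) against the mean log2 level over 12 arrays (horizontal axis) for all 17 probe sets, in DMSO on the left and TMZ on the right. The dotted line at 4.30 is the highest control value, CA2 lies lowest in both panels at -1.61 and -1.08, and all 7 CA12 probe sets lie above 0 in TMZ.

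Other carbonic anhydrases gave no call. Of CA1, CA4, CA5A, CA6, CA7, CA10 and CA14, all 7 measured, 0 of 7 were called by limma in any of the 5 comparisons. Between the lines 19.9% of all genes were called in DMSO and 21.1% in TMZ. All values of CA4, CA6 and CA10 lay inside the control range. The group means of CA1, CA5A, CA7 and CA14 ran from 4.71 to 5.07, not far above it, so the lack of calls says little about these genes. CA7, a cytosolic enzyme of neurons, had an unadjusted p under 0.05 in both TMZ responses, at -0.22 in shp105 cells (adjusted p = 0.232) and -0.26 in shControl cells (adjusted p = 0.284). The median difference of these 7 genes between the lines was -0.09 in DMSO and -0.05 in TMZ.

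Bicarbonate transporters move the product of these enzymes across membranes. Of 14 measured, 3 were lower in shp105 cells in DMSO and 0 higher, and 3 lower and 0 higher in TMZ, beside 11.6% and 11% of all genes lower. With 14 genes no enrichment is read from these counts. SLC4A4, the sodium-bicarbonate cotransporter that astrocytes use, stood at 6.10, 6.14 and 6.30 in shp105 cells with DMSO, against 7.59, 7.30 and 7.43 in shControl cells with DMSO. Its arrays did not overlap, as held for 35.9% of all genes, with a difference of -1.26 (SE 0.10, adjusted p = 2.51e-06). Under TMZ SLC4A4 differed by -1.11 (SE 0.10, adjusted p = 8.13e-06). It has 5 probe sets, of which 4 were below 0 and 1, the brightest, was called under either treatment. SLC26A4, the exchanger pendrin, stood at 4.25, 4.24 and 4.44 in shp105 cells with DMSO, against 5.30, 4.72 and 4.98 in shControl cells with DMSO. It was called lower in both treatments (adjusted p = 0.0032 in DMSO and 0.00309 in TMZ), but its shp105 arrays lay at the top of the control range, so the fitted -0.69 does not measure the size of the difference. SLC4A8, a sodium-driven chloride-bicarbonate exchanger, differed by -0.30 in DMSO and -0.33 in TMZ (adjusted p = 0.00661 and 0.00341). Its 4 probe sets disagreed in direction. None of the 14 was called by limma in either TMZ response (unadjusted p under 0.05 for 1 in shp105 cells and 2 in shControl cells), and SLC4A4 differed there by 0.15 in shp105 cells (adjusted p = 0.492).

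Proton and lactate exporters carry off the acid. Of 20 measured in a list of 25, 3 were higher and 2 lower in shp105 cells in DMSO, and 3 higher and 3 lower in TMZ, with list medians of -0.07 in DMSO and -0.002 in TMZ. Over all genes 19.9% were called in DMSO and 21.1% in TMZ, so nothing about the exporters is read from these counts. ATP6V0A2, a subunit of the V-type proton pump, differed by -0.46 in DMSO (adjusted p = 9.67e-05), although 3 of its 6 probe sets had differences above 0. ATP6V1C1, another pump subunit, differed by -0.37 (adjusted p = 0.000643), with 1 of its 4 probe sets above 0, and the monocarboxylate transporter SLC16A7 by 0.39 (adjusted p = 0.00386), with all 5 of its probe sets above 0. None of the 20 was called by limma in a TMZ response (unadjusted p under 0.05 for 4 in shp105 cells and 3 in shControl cells).

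Hypoxia-inducible factor (HIF) is the known activator of membrane carbonic anhydrases, above all of CA9. Of 18 HIF target genes 9 were higher and 2 lower in shp105 cells in DMSO, beside 8.34% and 11.6% of all genes. In TMZ 7 were higher and 1 lower, beside 10.1% and 11%. Whether HIF activity differs between the lines was not tested. The glucose transporter SLC2A1 was higher by 0.85 (SE 0.08, adjusted p = 1.06e-05) and the kinase PDK1 by 0.84 (SE 0.08, adjusted p = 1.97e-05) in DMSO. NDRG1, a hypoxia-induced gene of differentiation and stress, was higher by 0.50 (adjusted p = 0.000333). VEGFA, 1 of the 2 targets called lower in DMSO, differed by -0.19 (SE 0.06, adjusted p = 0.037), with 1 of its 4 probe sets above 0. With each probe set tested on its own, 0 of the 4 for VEGFA were called. The factor gene HIF1A was higher by 0.22 (adjusted p = 0.00881) and its inhibitor HIF1AN lower by -0.26 (adjusted p = 0.0138). These were 1 and 1 of 8 regulators called, beside 8.34% and 11.6% of all genes. CA12 itself was not called in DMSO, as given above. In the TMZ responses none of the 18 targets was called by limma, while 7 in shp105 cells and 5 in shControl cells had an unadjusted p under 0.05. Among the regulators EGLN1, an oxygen-sensing hydroxylase, was called lower with TMZ in shp105 cells (-0.26, adjusted p = 0.0387), with 1 of its 4 probe sets above 0, and none was in shControl cells (1 at an unadjusted p under 0.05). With each probe set tested on its own, 0 of the 4 for EGLN1 were called in shp105 cells.

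NF-kB subunits and IkB proteins were the last list. Of 9 measured in a list of 10, 3 were lower and 0 higher in shp105 cells in DMSO, beside 11.6% of all genes lower, and 4 lower and 0 higher in TMZ, beside 11%. The additional gene in TMZ is NFKB1, whose call ended without single arrays, as given above. RELB, the subunit of the non-canonical branch, stood at 5.73, 5.80 and 5.67 in shp105 cells with DMSO, against 6.74, 6.36 and 6.53 in shControl cells with DMSO. The arrays did not overlap, as held for 35.9% of all genes, and the difference was -0.81 (SE 0.10, adjusted p = 0.000118). NFKBIZ, an atypical IkB protein, differed by -1.42 (adjusted p = 7.26e-08) and the inhibitor NFKBIA by -0.69 (adjusted p = 0.000473). The other of 2 NFKBIA probe sets was at -0.17 in DMSO and 0.004 in TMZ, not called. In TMZ RELB, NFKBIZ and NFKBIA differed by -0.50, -1.45 and -0.78. None of the 9 was called by limma in a TMZ response (unadjusted p under 0.05 for 2 in shp105 cells and 0 in shControl cells).

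The genes whose pattern over the 12 arrays was most like that of CA2 were found by the root mean square difference of values centred on each gene's mean. CA2 was the one member whose 4 group means spanned 1 or more on the log2 scale, at 1.64. The nearest were ACVR1C, an activin-type receptor, at 0.14, RPL39L, a ribosomal protein variant, at 0.15, NOTCH4, a Notch receptor, at 0.16, ZNF257, a zinc finger gene, at 0.165, and CSTA, a cystatin, at 0.169, where the median over all genes was 0.71. All 5 were lower in shp105 cells, by -1.59 to -1.27 in DMSO. CA2 had the larger TMZ difference in shp105 cells, 0.56, against 0.29 to 0.39 for these 5. They were picked for likeness, so their values are a description.

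**Figure D4:**
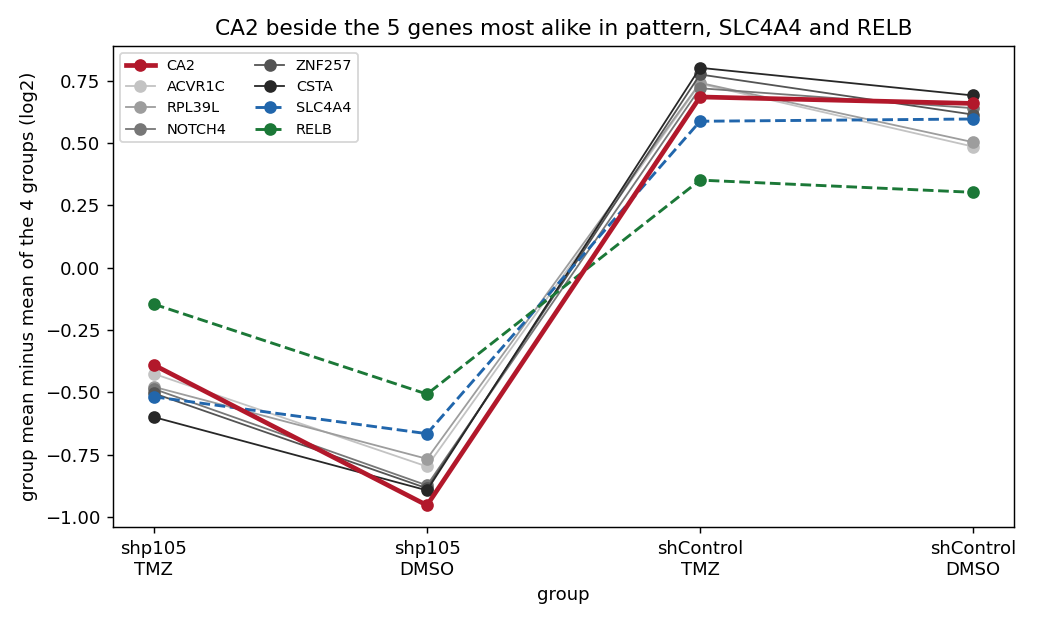
Group means of CA2, the 5 genes most alike in pattern, SLC4A4 and RELB, each minus the mean of its 4 group means (vertical axis, log2), in the 4 groups (horizontal axis, lines join the groups of a gene). CA2 spans 1.64 between shp105 cells with DMSO and shControl cells with TMZ, and SLC4A4 and RELB span less.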

How the data were processed

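Total RNA of 12 samples was read on Affymetrix expression arrays. The authors deposited log2 expression levels for 54675 probe sets, and RMA and Affymetrix Power Tools stand in the submitters' processing notes, with no version, build or filter. A single gene symbol was assigned to 41097 probe sets (updated by Entrez identifier, 54 kept their older symbol), 1801 had several and 11777 none. The members, lists and tests were chosen with earlier results of these data known. All comparisons come from one limma fit of 4 group means (lmFit, eBayes, 2-sided), tested on simulated data, and comparisons that use the same arrays are not independent. In the simulation, changes of 0.6 were called in 54.3% of genes for the difference of responses and in 74.3% to 82.9% for the other comparisons. A lack of calls for the difference of responses thus does not show that the responses are alike. Besides the members and NFKB1, up to 3 called genes of a list by smallest p are named, and the 5 genes most like a member whose group means span 1 or more. VEGFA is named in addition, as a HIF target called lower. Same-numbered replicates deviated together in 2 of 18 pairs (r over 0.1, range -0.14 to 0.12), so the numbers were not taken to pair the samples. The alternatives tried are given with the limits. R 4.3.3, limma 3.58.1, Python 3.11.15 and matplotlib 3.10.9 were used. The number of arrays limits precision.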

Additional observations from a re-analysis of the deposited data

How the results depend on the processing

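Alternatives were probe-set means per gene, each probe set on its own, dim genes left out, median centring, quantile normalization, array weights, eBayes with trend and robust options, a fit of the 2 compared groups alone, a replicate block, the spike-in mean as a covariate, a threshold of 0.01, and each array left out in turn. The counts of carbonic anhydrase genes called were 2, 2, 0, 1 and 0 for the lines in DMSO, the lines in TMZ, TMZ in shControl cells, TMZ in shp105 cells and the difference of responses. Leaving out any 1 array gave 2 to 2, 2 to 2, 0 to 0, 1 to 1 and 0 to 0. With the spike-in covariate the lines differed in 1 gene in DMSO and 1 in TMZ, and TMZ in shp105 cells gave 0, as it also did in the fit of 2 groups, which holds fewer arrays. With probe-set means CA12 was called between the lines in TMZ as well, higher in shp105 cells (adjusted p = 0.0479). For TMZ in shControl cells 1 gene, CA12, was called with genes below the median level left out, which tests fewer genes, and 1 with trend and robust options. For the rest the cause was not tested. The replicate block gave 2, 2, 0, 1 and 0. CA2 stayed between -2.0 and -1.54 in DMSO and between -1.37 and -1.04 in TMZ between the lines. 

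Of 892 recomputed gene differences 38 changed sign, none called (smallest adjusted p 0.452). CA8 between the lines in TMZ was at -0.015 with probe-set means, -0.006 with median centring, -0.006 with quantile normalization, -0.026 with array weights and -0.033 with the spike-in covariate. Probe-set means gave CA13 0.035 for TMZ in shControl cells, quantile normalization gave CA12 0.012 and array weights CA5B 0.009 between the lines in DMSO. The spike-in covariate gave CA2 -0.224 for TMZ in shControl cells, NFKB1 0.001 for TMZ in shp105 cells and CA11 -0.008 for the difference of responses. With 1 array left out, the lines in DMSO gave CA5B -0.201 to 0.128 and CA12 -0.037 to 0.001, and the lines in TMZ gave CA8 -0.117 to 0.09. TMZ in shControl cells gave CA2 -0.024 to 0.087 and CA11 -0.036 to 0.091. TMZ in shp105 cells gave CA3 -0.042 to 0.039, CA5B -0.311 to 0.018 and CA8 -0.07 to 0.137. The difference of responses gave CA5B -0.182 to 0.147, CA11 -0.028 to 0.118 and CA13 -0.084 to 0.058.

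Counts over all genes were 3937 in DMSO and 4166 in TMZ between the lines, 73 for TMZ in shControl cells and 171 in shp105 cells. In that order they were 523, 1045, 0 and 13 with the spike-in covariate and 2439, 2566, 15 and 39 at a threshold of 0.01. For TMZ in shControl and shp105 cells they were 291 and 904 without dim genes, 358 and 937 with trend and robust options, 19 and 2 in fits of 2 groups, 30 and 84 with the replicate block, and 37 and 67 over single probe sets. Probe-set means gave 45 and median centring 43 in shControl cells, and array weights gave 149 in shControl cells and, in shp105 cells, a count more than 1.5 times lower than 171. Without 1 array they ran from 16 to 76 and from 49 to 188. Of the counts for the gene lists, 36 of 276 between the lines in DMSO, 41 of 276 in TMZ, 3 of 276 for TMZ in shControl cells and 31 of 276 in shp105 cells moved by over 1.5 times, and 0 of 264 for the difference of responses.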

Other observations

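CA13, CA1, CA3 and CA2 follow each other on chromosome 8. The protein-coding genes within 5 places on either side were looked at after the values of CA2 and CA13 had been seen, so the following is a description. LRRCC1, a centrosomal protein gene on the CA13 side, differed by -0.98 (SE 0.07, limma adjusted p = 1.07e-06) between shp105 and shControl cells in DMSO and by -0.89 (adjusted p = 2.73e-06) in TMZ. SNX16, a sorting nexin gene at the far end of that side, differed by -0.46 (adjusted p = 0.00128) in DMSO and by -0.42 (adjusted p = 0.00247) in TMZ. E2F5 differed by -0.23 in DMSO and in TMZ (adjusted p = 0.111 and 0.105), RBIS by -0.18 and 0.08, and CA1, which lies between CA13 and CA2, by -0.003 and -0.07, none called. RALYL and CA3 had mean levels of 3.37 and 2.75, inside the range of the bacterial control probe sets, and give no information. CA1 and PSKH2, at mean levels of 4.86 and 4.545, lay little above that range and below the array medians, and so give little information. LRRCC1, at a mean level of 5.43, lay little above the array medians, so its differences are uncertain in size. PSKH2 and ATP6V0D2 on the CA2 side were not called, and 3 genes there were not measured.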
